A study of Mus musculus with 12 samples.

Results

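The 7 mouse genes described here are progranulin (Grn) and the genes of its receptors and partners, namely Sort1, Lrp1, Psap, Tmem106b, Tnfrsf1a and Tnfrsf1b. They were chosen by gene symbol from the 27179 genes counted in 12 RNA-seq libraries of mouse cortex, and all 7 were among the 15298 genes abundant enough to test. The libraries form 3 groups of 4. The mutant mice (MUT, genotype Grn-/-;GRNmEx5) were null for mouse Grn and, by the series title, humanized with a pathogenic GRN deletion; they were 272 to 309 days old. The knockout mice (KO, Grn-/-) were null for mouse Grn without the GRNmEx5 allele and were 282 to 308 days old. Wild-type mice (WT, Grn+/+) were 287 days old in replicate 1 and 375 days old in replicates 2, 3 and 4. MUT replicates 1, 2 and 4, KO replicates 3 and 4 and WT replicate 1 were labelled female, and the others male. MUT and KO thus share the null state of mouse Grn. The labels give neither the structure of the alleles nor the number of founders.

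Progranulin is a secreted glycoprotein built of granulin repeats that is cleaved into granulins in lysosomes, and in the brain it is made mainly by microglia and neurons. Sortilin, the product of Sort1, binds progranulin at the cell surface and carries it to lysosomes. Prosaposin, the product of Psap, offers a second route by binding progranulin and taking it along through the endocytic receptor Lrp1. Tmem106b encodes a lysosomal membrane protein whose common variants modify the risk of frontotemporal dementia in carriers of GRN mutations. Binding of progranulin to the tumour necrosis factor receptors, encoded by Tnfrsf1a and Tnfrsf1b, has been reported and disputed.

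Start-site windows of the genes for 3 lysosomal proteins, Grn, Psap and Tmem106b, are shown as a description. Whether their letters bear on the reads of these genes in any group was not tested. Each window runs from 250 bases before to 50 bases after a RefSeq start site (GRCm38.p6), on the strand of the gene. They lie at chr11:102430257-102430556 (plus strand, Grn), chr10:60277378-60277677 (plus strand, Psap) and chr6:13069509-13069808 (plus strand, Tmem106b). Capitals mark matches on either strand to CACATG, the E-box letters of the M-box kind, and to GGGCGG, the GC box.
Grn: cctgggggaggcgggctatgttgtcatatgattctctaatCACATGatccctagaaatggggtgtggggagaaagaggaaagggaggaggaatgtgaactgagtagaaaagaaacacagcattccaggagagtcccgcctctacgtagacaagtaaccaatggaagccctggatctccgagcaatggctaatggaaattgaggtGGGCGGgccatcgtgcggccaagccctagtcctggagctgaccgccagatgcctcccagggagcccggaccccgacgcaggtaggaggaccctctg
Psap: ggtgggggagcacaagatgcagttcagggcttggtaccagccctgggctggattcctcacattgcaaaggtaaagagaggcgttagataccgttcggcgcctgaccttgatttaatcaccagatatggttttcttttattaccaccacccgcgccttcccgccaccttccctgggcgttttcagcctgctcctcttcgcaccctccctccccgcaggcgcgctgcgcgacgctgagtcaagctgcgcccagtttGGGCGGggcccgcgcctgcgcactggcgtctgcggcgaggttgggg
Tmem106b: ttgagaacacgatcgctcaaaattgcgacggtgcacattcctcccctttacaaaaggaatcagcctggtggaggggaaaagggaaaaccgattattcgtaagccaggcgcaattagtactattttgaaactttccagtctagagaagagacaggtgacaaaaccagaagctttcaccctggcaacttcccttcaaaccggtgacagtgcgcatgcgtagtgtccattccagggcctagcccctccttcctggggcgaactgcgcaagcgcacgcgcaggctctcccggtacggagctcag
The Grn window held CACATG at position -210 from the start site and a GC box at position -46, and the Psap window held a GC box at position 4. The Tmem106b window held neither. CACGTG, the E-box within the CLEAR element to which the lysosomal regulator TFEB binds, was in none of the 7 RefSeq windows of the 6 matched genes, and neither was TATAAA, the TATA box. These windows were of Grn, Psap (a pair), Lrp1, Tmem106b, Tnfrsf1a and Tnfrsf1b. Of the 32544 windows of this length, 7.17% held CACGTG, 14.2% CACATG, 35.9% GGGCGG and 13.6% TATAAA on either strand. Read counting for Grn began 185 bases upstream of the RefSeq start site, at position 102430322 of chromosome 11, inside the printed window. The letters give no information on whether a factor binds.

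The libraries held 16381221 to 20782195 counts. Markers of cerebral cortex were present in every library, with a summed level of 669 to 799.9 CPM in MUT, 697 to 813 CPM in KO and 707 to 856 CPM in WT over 8 genes (CPM, counts scaled to a common TMM-adjusted library size). Tissue makeup was uneven. Summed markers of striatal projection neurons measured 255 to 338 CPM in MUT, 243 to 395 CPM in KO and 278 to 1954 CPM in WT over 10 genes, with the high values in WT replicates 2, 3 and 4. Choroid plexus markers summed to 14.6 to 1424 CPM in MUT, 14.8 to 2018 CPM in KO and 10.9 to 682 CPM in WT over 9 tested genes, with the high values in MUT replicate 1, KO replicate 3 and WT replicate 4. Microglial markers differed less, with 426 to 459.8 CPM in MUT, 431 to 456 CPM in KO and 387 to 453 CPM in WT over 12 genes. Xist and Ddx3y counts ran opposite to the labelled sex in 12 of 12 libraries, so the sex term of the model splits the libraries the same way under either coding. Whether each library is a separate animal is not stated, and the p-values speak only for the variation among these libraries. In bulk cortex, fewer cells of a type and less RNA per cell cannot be told apart.

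Loss of mouse Grn was checked first in every library. Grn (Entrez 14824; mm10 chromosome 11, 102430322 to 102436809, plus strand, 13 exon intervals) fell in both null groups. It measured 11.5, 13.8, 13.3 and 15.3 CPM in MUT replicates 1 to 4, against 12.9, 10.8, 13.4 and 14.0 CPM in KO replicates 1 to 4 and 57.2, 59.9, 57.6 and 57.0 CPM in WT replicates 1 to 4. Every null library thus lay far below every WT library, and MUT and KO overlapped. In read numbers, 232 to 260 counts were assigned to Grn in each MUT library, 206 to 250 in each KO library and 956 to 1166 in each WT library. Single null libraries kept between 18.6% (KO replicate 2) and 26.4% (MUT replicate 4) of the WT mean. The table gives 1 sum per gene, and which exons the remaining reads came from was not analysed here. Whether reads from the human GRN allele were counted as Grn in MUT was not tested either, so the MUT values are reads assigned to Grn and need not all be mouse transcript.

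The fitted log2 fold change of Grn was -2.15 in MUT against WT (SE 0.09, edgeR quasi-likelihood adjusted p = 6.7e-08) and -2.20 in KO against WT (SE 0.09, edgeR adjusted p = 4.8e-08). By p-value Grn ranked 2 of 15298 genes in MUT against WT and 1 in KO against WT. The test of MUT against KO found no difference in Grn past the threshold, with a log2 fold change of 0.06 and a 95% interval of -0.14 to 0.26 (edgeR adjusted p = 0.993). In animals under 310 days, where WT replicate 1 is the lone WT library and is assumed to vary like the others, Grn was at -2.06 in MUT and -2.10 in KO. Grn is the gene that the genotypes alter, so its fall checks the labels and is no separate result.

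Grn was the only gene of the 7 to pass the threshold (adjusted p below 0.05) in either null group. In MUT against WT 1 of 7 passed, where 0.0131% of all tested genes did. In KO against WT 1 of 7 passed, where 0.49% of all tested genes did. With both null groups averaged against WT the count was again 1 of 7, beside 0.15% of all genes, and in MUT against KO it was 0 of 7, beside 0.00654% of all genes. For the 6 genes other than Grn the fitted log2 fold changes ran between -0.11 and 0.13 in MUT against WT and between -0.17 and 0.10 in KO against WT. Their medians were -0.03 in MUT and -0.05 in KO, near the medians of 0.00 over all tested genes in both comparisons. The 95% intervals of single genes reached no lower than 0.837-fold and no higher than 1.36-fold in MUT, and no lower than 0.814-fold and no higher than 1.29-fold in KO. At an unadjusted p below 0.05 the 6 genes gave 1 in MUT against WT (Lrp1), 3 in KO against WT (Sort1, Lrp1 and Tmem106b), 1 in MUT against KO (Tmem106b) and 2 with both null groups averaged (Sort1 and Lrp1). Of all tested genes, 10.9% reached that level in MUT against WT, 17.6% in KO against WT, 5.67% in MUT against KO and 16.5% with both null groups averaged. These comparisons share libraries and are not separate checks.

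**Figure D1:**
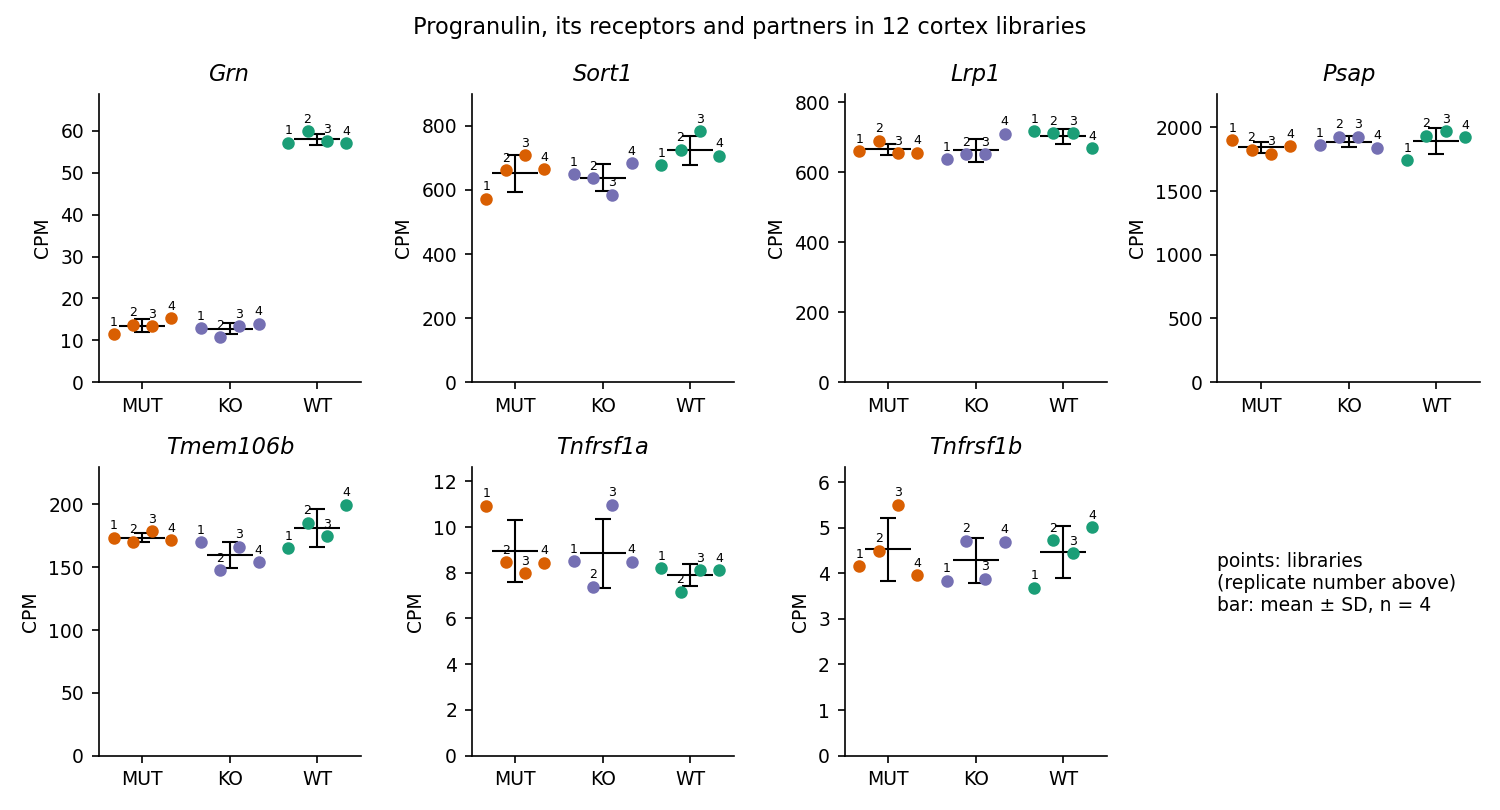
CPM of each gene (y axis from 0) in every library of the MUT, KO and WT groups. Points are libraries with the replicate number above them, and bars give the mean and SD of 4. Grn lies between 10.8 and 15.3 CPM in the null libraries and between 57.0 and 59.9 CPM in WT. The groups overlap for the other genes, except MUT against KO for Tmem106b, by a small margin. The share of all tested genes without overlap was not counted.

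Of the receptors that carry progranulin into the cell, Sort1 (Entrez 20661; chromosome 3, 108284132 to 108361511, plus strand) had the lower mean in both null groups without passing the test. It measured 573, 661, 708 and 664 CPM in MUT replicates 1 to 4, against 649, 637, 586 and 684 CPM in KO and 678, 726, 784 and 707 CPM in WT. The lowest values were those of MUT replicate 1 and KO replicate 3, both rich in choroid plexus markers, and the highest was that of WT replicate 3. Ranges overlapped between each null group and WT. The log2 fold change was -0.11 in MUT (95% interval -0.26 to 0.04, edgeR adjusted p = 0.604) and -0.16 in KO (interval -0.30 to -0.01, edgeR adjusted p = 0.242). In MUT the value was -0.06 without MUT replicate 1 (edgeR adjusted p = 0.723) and -0.19 with the microglial marker level as a term (edgeR adjusted p = 0.262). In KO it was -0.09 in libraries labelled female, where WT replicate 1 is the lone WT library. With the choroid plexus marker level as a further term the KO value was -0.16 (edgeR adjusted p = 0.0894), and without the 3 libraries rich in those markers it was -0.15 (edgeR adjusted p = 0.268).

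Lrp1 (Entrez 16971; chromosome 10, 127538157 to 127621148, minus strand), the large endocytic receptor of the LDL receptor family, was similar. It measured 659.9, 689.5, 654 and 655 CPM in MUT replicates 1 to 4, against 637, 652, 652 and 710.0 CPM in KO and 717, 710.5, 712 and 669 CPM in WT. WT replicate 4 lay within the MUT range and KO replicate 4 within the WT range, and the remaining null libraries lay below the other WT libraries. The log2 fold change was -0.11 in MUT (SE 0.05, edgeR adjusted p = 0.436) and -0.10 in KO (SE 0.04, edgeR adjusted p = 0.260). Averaged over both null groups it was -0.10, with an interval of -0.18 to -0.02 and an edgeR adjusted p of 0.217. Over the 29 alternative fits, Lrp1 stayed between -0.13 and -0.08 in MUT and between -0.12 and -0.07 in KO, and passed in none of them.

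Psap (Entrez 19156; chromosome 10, 60277628 to 60302600, plus strand) encodes prosaposin, the precursor of the saposins that help lysosomal enzymes reach their lipids. It measured 1900.4, 1825, 1792 and 1850.1 CPM in MUT replicates 1 to 4, against 1858, 1927, 1926 and 1840.4 CPM in KO and 1743, 1934, 1969.7 and 1922 CPM in WT. The lowest value of all 12 was in WT replicate 1 and the highest in WT replicate 3, so that both null groups fell inside the WT range. Its log2 fold change was -0.02 in MUT (interval -0.13 to 0.08, edgeR adjusted p = 0.895) and 0.01 in KO (interval -0.09 to 0.10, edgeR adjusted p = 0.961). In linear terms the interval ran from 0.917-fold to 1.06-fold in MUT and from 0.939-fold to 1.07-fold in KO.

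Tmem106b (Entrez 71900, chromosome 6, 13069759 to 13089269, plus strand) passed the test in no comparison. MUT and KO each overlapped with WT but not with each other. The share of all tested genes without overlap between MUT and KO was not counted. It measured 174, 170.3, 178 and 171 CPM in MUT replicates 1 to 4, against 170.0, 148, 166 and 154 CPM in KO and 165, 185, 175 and 199.8 CPM in WT. The MUT libraries sat close together, all above the highest KO library by a small margin and all inside the WT range. KO replicates 2 and 4 lay below every WT library, and KO replicates 1 and 3 lay inside the WT range. The log2 fold change was -0.03 in MUT against WT (edgeR adjusted p = 0.893), -0.17 in KO against WT (interval -0.30 to -0.04, edgeR adjusted p = 0.181) and 0.14 in MUT against KO (interval 0.01 to 0.27, edgeR adjusted p = 0.878). WT replicates 2 to 4 were older and rich in striatal markers. In animals under 310 days the KO value was -0.06, and with the striatal marker level as a term it was -0.08 (edgeR adjusted p = 0.682). Adding age to the model put it at -0.0027 (edgeR adjusted p = 0.994), and without KO replicate 2 it was -0.10 (edgeR adjusted p = 0.533). Other fits moved it further from 0. It was -0.22 without WT replicate 1 (edgeR adjusted p = 0.0533) and -0.21 with the microglial marker level as a term (edgeR adjusted p = 0.119). Over the 29 alternative fits the KO value ran between -0.22 and -0.0027 and passed in none. What set these differences between fits was not tested.

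The TNF receptor genes had the lowest levels of the 7 in WT, also per length. Tnfrsf1a (Entrez 21937; chromosome 6, 125349723 to 125362483, plus strand) encodes the receptor with a death domain that most cells carry. It measured 10.9, 8.46, 7.97 and 8.45 CPM in MUT replicates 1 to 4, against 8.51, 7.39, 10.98 and 8.49 CPM in KO and 8.20, 7.18, 8.10 and 8.12 CPM in WT. The highest values in MUT and KO were each from 1 library, MUT replicate 1 and KO replicate 3. MUT replicates 2 and 4 and KO replicates 1 and 4 lay slightly above the highest WT library (8.20 CPM). MUT replicate 3 and KO replicate 2 lay inside the WT range. Choroid plexus markers were high in MUT replicate 1, KO replicate 3 and WT replicate 4, and Tnfrsf1a was at 8.12 CPM in the last. Their part in the values of single libraries was not tested. The log2 fold change was 0.08 in MUT (interval -0.20 to 0.36, edgeR adjusted p = 0.855) and 0.10 in KO (interval -0.16 to 0.37, edgeR adjusted p = 0.704). With the choroid plexus marker level as a further term it was 0.10 in MUT (edgeR adjusted p = 0.699) and 0.11 in KO (edgeR adjusted p = 0.518). Without the 3 libraries rich in those markers the KO value was 0.06 (edgeR adjusted p = 0.849). Over 29 alternative fits the value ran between -5.5e-05 (without MUT replicate 1) and 0.27 (with age added) in MUT, and between 0.03 (without KO replicate 3) and 0.33 (with age added) in KO. Without WT replicate 1 it was 0.00195 in MUT and 0.04 in KO, without KO replicate 2 it was 0.17 in KO, and without KO replicate 3 it was 0.12 in MUT.

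Tnfrsf1b (Entrez 21938; chromosome 4, 145212368 to 145246870, minus strand) encodes the receptor without a death domain, which in brain is expressed mainly by microglia. It measured 4.16, 4.50, 5.50 and 3.95 CPM in MUT replicates 1 to 4, against 3.83, 4.72, 3.88 and 4.69 CPM in KO and 3.69, 4.73, 4.45 and 5.01 CPM in WT. All 3 groups overlapped. The log2 fold change was 0.13 in MUT (interval -0.18 to 0.45, edgeR adjusted p = 0.769) and 0.00 in KO (interval -0.29 to 0.30, edgeR adjusted p = 0.996). Each library held only 65 to 96 counts of Tnfrsf1b, which alone gives a counting error of 10.98% in MUT, 11.2% in KO and 11.1% in WT. The observed coefficient of variation was 15.2% in MUT, 11.4% in KO and 12.8% in WT. The intervals leave room for a change in either direction, and what set their width was not tested.

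**Figure D2:**
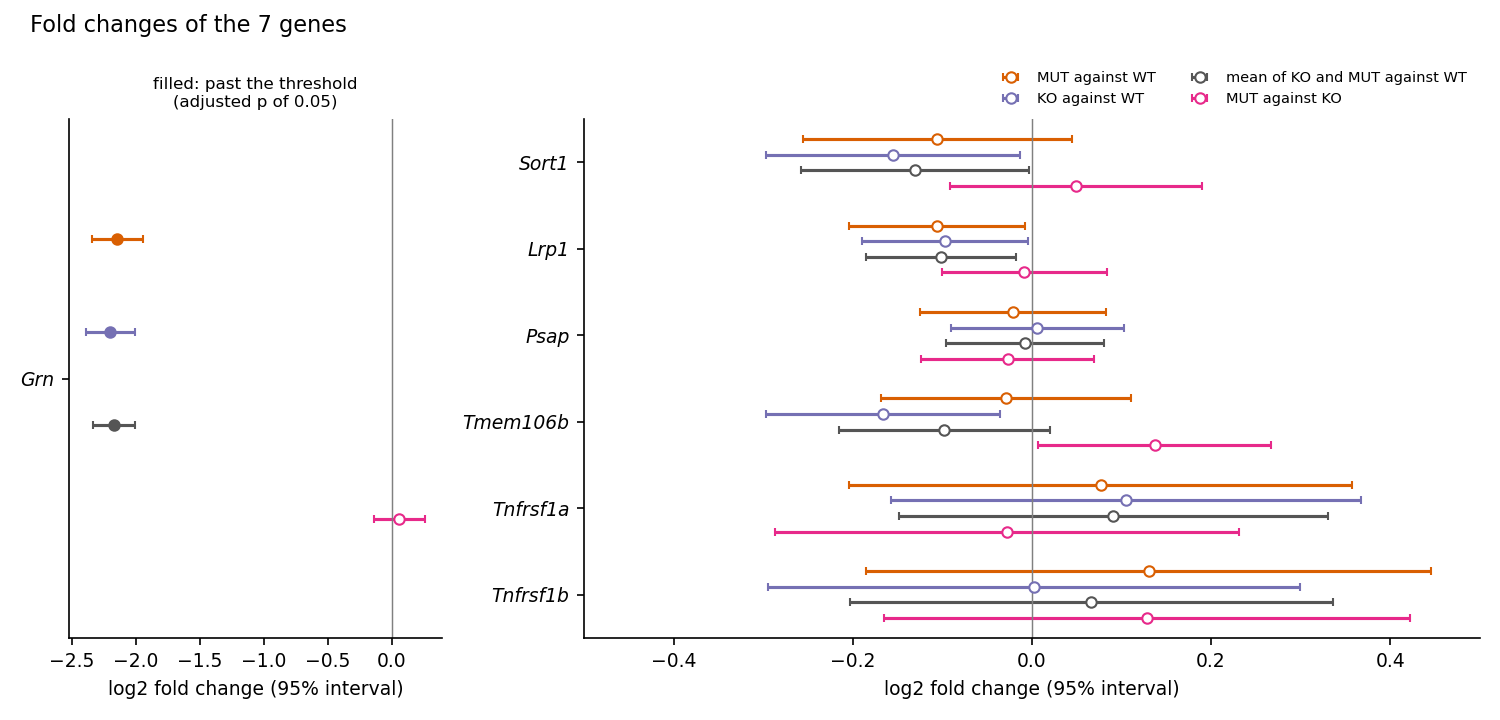
Log2 fold change of each gene (x axis) with its 95% interval, for MUT against WT, KO against WT, the mean of both against WT, and MUT against KO. Filled points passed the threshold, which only Grn did, at -2.15 in MUT and -2.20 in KO, while the other 6 genes lie between -0.17 and 0.14.

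Levels of different genes were compared per kilobase of exon (RPKM). In WT cortex the order was Psap with 693 ± 37.2 RPKM, Sort1 with 107 ± 6.59, Lrp1 with 47.1 ± 1.49, Tmem106b with 29.8 ± 2.46, Grn with 24.8 ± 0.578, Tnfrsf1a with 3.67 ± 0.223 and Tnfrsf1b with 0.910 ± 0.116 RPKM (mean ± SD, n = 4). No neighbours in this order overlapped between their lowest and highest WT libraries. Psap ranked 16 among the 15298 tested genes in WT and exceeded 99.9% of them. Grn exceeded 41.3% of tested genes in MUT, 40.6% in KO and 78.5% in WT.

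The order of the 7 genes held in MUT and KO, but Grn moved next to Tnfrsf1a. Grn measured 5.77 ± 0.680 RPKM in MUT, 5.47 ± 0.590 RPKM in KO and 24.8 ± 0.578 RPKM in WT (SD, n = 4 each). Tnfrsf1a measured 4.15 ± 0.621 RPKM in MUT, 4.104 ± 0.704 RPKM in KO and 3.67 ± 0.223 RPKM in WT, so Grn and Tnfrsf1a overlapped in their ranges in both null groups. Within single libraries Grn stood above Tnfrsf1a in 3 of 4 MUT, 4 of 4 KO and 4 of 4 WT libraries. The ratio of Sort1 to Grn transcript per length was 16.8 ± 1.42 in MUT, 17.4 ± 2.17 in KO and 4.31 ± 0.268 in WT, and that of Psap to Grn was 118 ± 16.4 in MUT, 128 ± 17.2 in KO and 27.9 ± 1.43 in WT (SD, n = 4 each). Grn is the denominator of both ratios.

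**Figure D3:**
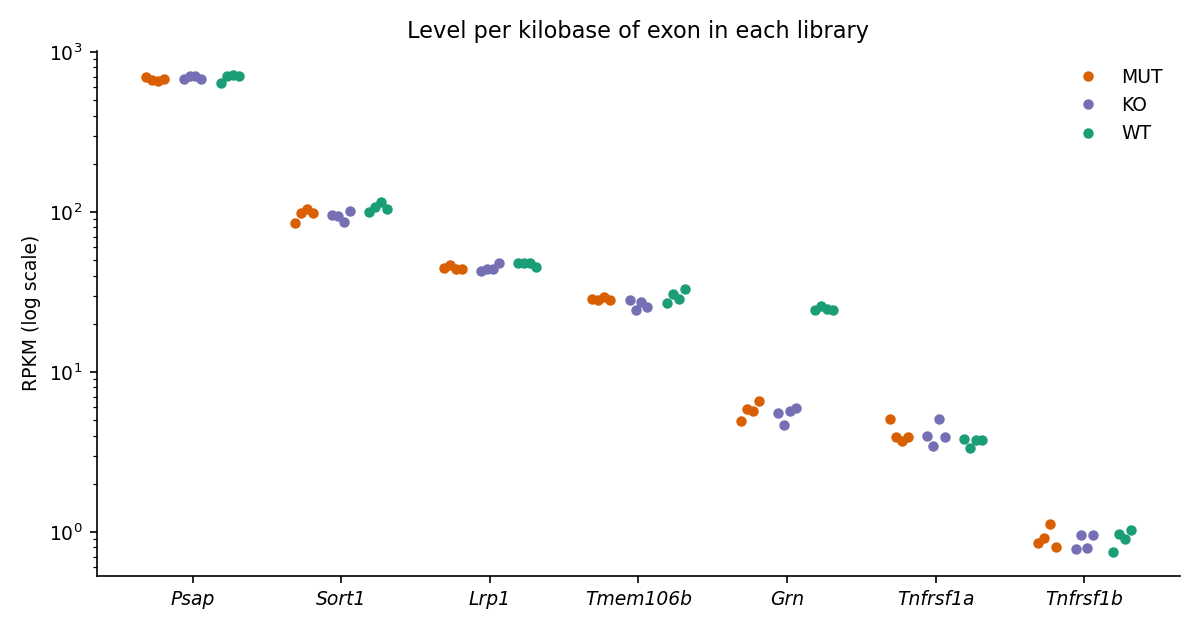
Level of each gene per kilobase of exon (RPKM, log axis) in every library, with MUT, KO and WT side by side. Grn sits beside Tmem106b in WT, at 24.8 RPKM, and beside Tnfrsf1a in MUT and KO, at 5.77 and 5.47 RPKM.

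Genes whose levels ran most like those of each member were sought over the 12 libraries, in log2 CPM centred on each group mean, among genes of at least 5 CPM. The values are Pearson correlations given as a description, and all libraries share the tissue differences named above. Each named gene was picked as among the highest of 11360 genes (11361 for Tnfrsf1b) over only 12 libraries. A high r is thus favoured by the choice itself and does not show shared control. Sort1 ran closest with Ppp2r2c, a regulatory subunit of protein phosphatase 2A (r = 0.96), with Camk2a, the calcium-dependent kinase of excitatory neurons (r = 0.95), and with Rnf44 (r = 0.95). Lrp1 ran closest with Gpatch8 (r = 0.93), Znrf1 (r = 0.92) and Rapgef1, an exchange factor for Rap GTPases (r = 0.90). Psap ran closest with Dpy19l1 (r = 0.96), Suox, the sulfite oxidase of mitochondria (r = 0.95), and Ckb, the brain creatine kinase (r = 0.95). Tmem106b ran closest with Frmd4b (r = 0.94), Ints2 (r = 0.93) and Lrp1b, a relative of Lrp1 (r = 0.92).

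Tnfrsf1a ran closest with Tulp3, a ciliary trafficking protein (r = 0.94), Hlf, a circadian-regulated transcription factor (r = 0.94), and Dab2, an endocytic adaptor (r = 0.93). Tnfrsf1b ran closest with Setd1a, a histone methyltransferase (r = 0.87), Dhx34 (r = 0.86) and Dnajc28 (r = 0.86). Grn, once centred on its groups, ran closest with Irf2bpl (r = 0.94), Tmem67 (r = 0.93) and Zbtb21 (r = 0.92). Uncentred, where the difference between null and WT libraries enters, it ran closest with Hmgcs1, an enzyme of cholesterol synthesis (r = 0.96), Znrf3, a ubiquitin ligase that limits Wnt signalling (r = 0.95), and Pafah1b1, the dynein regulator also called LIS1 (r = 0.95). Among the 7 members themselves the centred correlations ran between -0.71, of Sort1 with Tnfrsf1a, and 0.54, of Sort1 with Tnfrsf1b, and that of Lrp1 with Tmem106b was -0.61. In MUT replicate 1 and KO replicate 3 Sort1 was lowest and Tnfrsf1a highest of their groups. Both libraries were rich in choroid plexus markers, whose part in these correlations was not tested.

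Other genes of the same pathways were followed in 8 lists. Of 80 genes in the table that are not among the 7, 68 were tested, and 1 passed, Sorl1 in KO against WT by edgeR. At an unadjusted p below 0.05 there were 10 in MUT against WT, 15 in KO against WT and 5 in MUT against KO, beside shares of all tested genes of 10.9% in MUT against WT, 17.6% in KO against WT and 5.67% in MUT against KO. Sorl1 encodes SorLA, a sorting receptor of the sortilin family that handles the amyloid precursor protein. It fell in KO and measured 198, 207, 197 and 208 CPM in KO replicates 1 to 4, against 261, 269.7, 248 and 246 CPM in WT. In MUT replicates 1 to 4 it measured 222, 254, 256 and 221 CPM, which reached into the WT range. The log2 fold change was -0.33 in KO against WT (SE 0.06, edgeR adjusted p = 0.0397), -0.09 in MUT against WT (edgeR adjusted p = 0.626) and 0.24 in MUT against KO (interval 0.12 to 0.37, edgeR adjusted p = 0.717), so a difference between the null groups was not shown. The share of 1.47% called among the 68 stands beside 0.49% of all tested genes.

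The Sorl1 call depended on the terms of the model and on the libraries included. With all 12 libraries kept, it ended with age added (-0.42, edgeR adjusted p = 0.358). The same held with the striatal marker level as a term (-0.39, edgeR adjusted p = 0.098) and with the microglial marker level (-0.29, edgeR adjusted p = 0.051). The call also ended without WT replicate 2 (adjusted p = 0.147), WT replicate 4 (0.0774), MUT replicate 2 (0.0551), MUT replicate 3 (0.0561), MUT replicate 4 (0.0604), KO replicate 1 (0.165), KO replicate 2 (0.199) or KO replicate 3 (0.0906) by edgeR. The fold change itself stayed between -0.42 and -0.29 over 29 alternative fits, of which 13 called it. It was -0.40 in animals under 310 days (edgeR adjusted p = 0.204).

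Among the other sorting receptors, M6pr, the cation-dependent mannose 6-phosphate receptor, measured 79.4 ± 2.07 CPM in MUT, 83.1 ± 3.66 CPM in KO and 78.8 ± 0.433 CPM in WT (SD, n = 4 each). Scarb2, the receptor that delivers glucocerebrosidase to lysosomes, measured 72.8 ± 1.41, 71.5 ± 4.35 and 72.9 ± 2.54 CPM in MUT, KO and WT. In the 7 sorting receptors besides Sort1, 6 fold changes were below 0 in MUT and 6 in KO, with medians of -0.09 and -0.16. The medians over all tested genes were 0.00 in both comparisons. At an unadjusted p below 0.05 there were 3 of these 7 in MUT and 5 in KO, beside 10.9% and 17.6% of all tested genes. Apart from Sorl1 none of the 7 passed. Sorcs1 measured 39.1 to 47.4 CPM in MUT, 39.2 to 44.0 CPM in KO and 43.5 to 68.1 CPM in WT. Sorcs2 measured 45.7 to 59.4, 55.4 to 58.7 and 61.8 to 69.0 CPM in MUT, KO and WT. Sorcs3 measured 41.1 to 61.8, 50.5 to 62.8 and 58.1 to 99.0 CPM. The lowest WT values of Sorcs1 and Sorcs3 lay inside the MUT range. WT replicates 2 to 4 were older and rich in striatal markers, and the part of either in these values was not tested.

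In the LDL receptor family, none of 9 tested genes besides Lrp1 passed in MUT or in KO against WT, with medians of 0.03 and -0.10. Lrpap1, the chaperone of the family, measured 159.7 ± 6.07 CPM in MUT, 163 ± 6.54 CPM in KO and 170.3 ± 6.15 CPM in WT. Lrp8 (apolipoprotein E receptor 2) measured 118 ± 8.63, 114 ± 14.9 and 117 ± 14.7 CPM, and Vldlr, the very low density lipoprotein receptor, 80.0 ± 1.83, 74.0 ± 2.21 and 81.1 ± 11.1 CPM in MUT, KO and WT.

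None of the 9 other tested genes of the prosaposin axis passed, with medians of -0.0045 in MUT and 0.04 in KO against WT. Gpr37l1, a receptor reported for prosaposin, measured 158 ± 6.32 CPM in MUT, 151 ± 9.54 CPM in KO and 150.1 ± 14.7 CPM in WT. Its relative Gpr37 measured 63.6 ± 6.71, 68.3 ± 8.63 and 57.4 ± 10.01 CPM, and Smpd1, acid sphingomyelinase, 114 ± 3.48, 116 ± 5.10 and 115 ± 5.05 CPM in MUT, KO and WT. Of the TMEM106 family and reported partners of TMEM106B, 5 genes were tested and none passed. At an unadjusted p below 0.05 (edgeR) there were 1 in MUT and 2 in KO, beside 10.9% and 17.6% of all tested genes. Tmem106c measured 28.3 ± 1.77 CPM in MUT, 29.1 ± 2.73 CPM in KO and 24.9 ± 1.21 CPM in WT. Atp6ap1, an accessory subunit of the lysosomal proton pump, measured 344 ± 8.49 CPM in MUT, 343 ± 5.57 CPM in KO and 336 ± 3.89 CPM in WT.

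Map6, a microtubule-associated protein, measured 163 ± 6.05, 163 ± 4.88 and 179 ± 6.05 CPM in MUT, KO and WT, and Chmp2b, an ESCRT subunit mutated in a rare frontotemporal dementia, 52.5 ± 3.43, 56.3 ± 1.95 and 54.4 ± 1.12 CPM. TNF signalling had 19 tested genes besides the receptors, none of which passed, with medians of 0.08 in MUT and 0.04 in KO. The ligands themselves were near absence, since Tnf had at most 2 counts, Lta at most 6 and Ltb at most 12 in any library, and they were not tested. Of the kinase complex that frees NF-kappaB, Ikbkb measured 62.7 ± 1.13, 60.9 ± 2.69 and 57.4 ± 3.27 CPM, Chuk 52.8 ± 2.92, 49.3 ± 1.32 and 48.8 ± 3.26 CPM, and Ikbkg 40.3 ± 2.39, 40.3 ± 2.29 and 42.9 ± 1.90 CPM in MUT, KO and WT.

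Of 12 genes for proteases reported to cleave progranulin and for the inhibitor Slpi, 6 were tested and none passed. Slpi, Elane and Mmp12 had at most 2 counts in any library. Ctsd, cathepsin D, measured 339, 324, 340.3 and 343 CPM in MUT replicates 1 to 4, against 343, 345, 369.8 and 334 CPM in KO and 271, 288, 334 and 308 CPM in WT. KO replicate 4 and WT replicate 3 nearly met. Its log2 fold change was 0.19 in MUT (SE 0.06, edgeR adjusted p = 0.397) and 0.23 in KO (SE 0.06, edgeR adjusted p = 0.0915), and without WT replicate 3 the KO value was 0.28 and passed (edgeR adjusted p = 0.0371), as it did with DESeq2 (adjusted p = 0.0161). With the microglial marker level as a term it was 0.13 in KO (edgeR adjusted p = 0.214), with the striatal marker level as a term 0.32 (0.119), with age added 0.38 (0.398) and in animals under 310 days 0.37 (0.146). In MUT it was 0.08 with the microglial term, 0.11 without WT replicate 1 and 0.32 with age added, and passed in none of the 29 alternative fits.

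Ctsb, cathepsin B, measured 564 ± 32.0 CPM in MUT, 566 ± 17.6 CPM in KO and 579.7 ± 57.0 CPM in WT, and Lgmn, legumain, 100.5 ± 3.79, 104 ± 5.15 and 97.1 ± 5.86 CPM. Ctsl, cathepsin L, measured 71.8 to 86.7 CPM in MUT, 74.0 to 89.4 CPM in KO and 66.8 to 70.5 CPM in WT. It lay higher in the null libraries without passing the test. The share of all tested genes without overlap between null and WT libraries was not counted. Of the 6 tested genes of this list, 5 fold changes were above 0 in MUT and 4 in KO. None of 10 genes listed as other reported partners or markers of progranulin loss passed. Of their fold changes, 7 were above 0 in MUT and 4 in KO. The markers Trem2 and Gpnmb had higher means in both null groups. Trem2 measured 11.04 ± 1.01, 11.8 ± 0.724 and 8.89 ± 1.02 CPM in MUT, KO and WT. All KO libraries lay above WT (11.3 to 12.9 against 7.79 to 10.3 CPM), while MUT overlapped with WT. How many tested genes lay apart in this way was not counted. Gpnmb measured 3.81 ± 0.617, 3.97 ± 0.869 and 2.91 ± 0.969 CPM, and its groups overlapped. The chaperone Hspa5 measured 353 ± 46.9, 307 ± 57.9 and 322 ± 31.0 CPM, the disulfide isomerase Pdia3 206 ± 9.45, 194 ± 13.2 and 201 ± 5.63 CPM, and the cargo receptor Surf4 71.1 ± 1.94, 71.9 ± 4.101 and 70.8 ± 1.53 CPM in MUT, KO and WT. The transcription factors of lysosomal genes did not pass either. Tfeb measured 9.55 ± 1.40, 9.30 ± 1.07 and 7.87 ± 0.575 CPM, Tfe3 41.9 ± 1.203, 45.4 ± 1.65 and 42.8 ± 1.55 CPM, and Mitf 9.76 ± 1.07, 9.80 ± 1.08 and 9.80 ± 1.44 CPM in MUT, KO and WT (SD, n = 4 each).

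**Figure D4:**
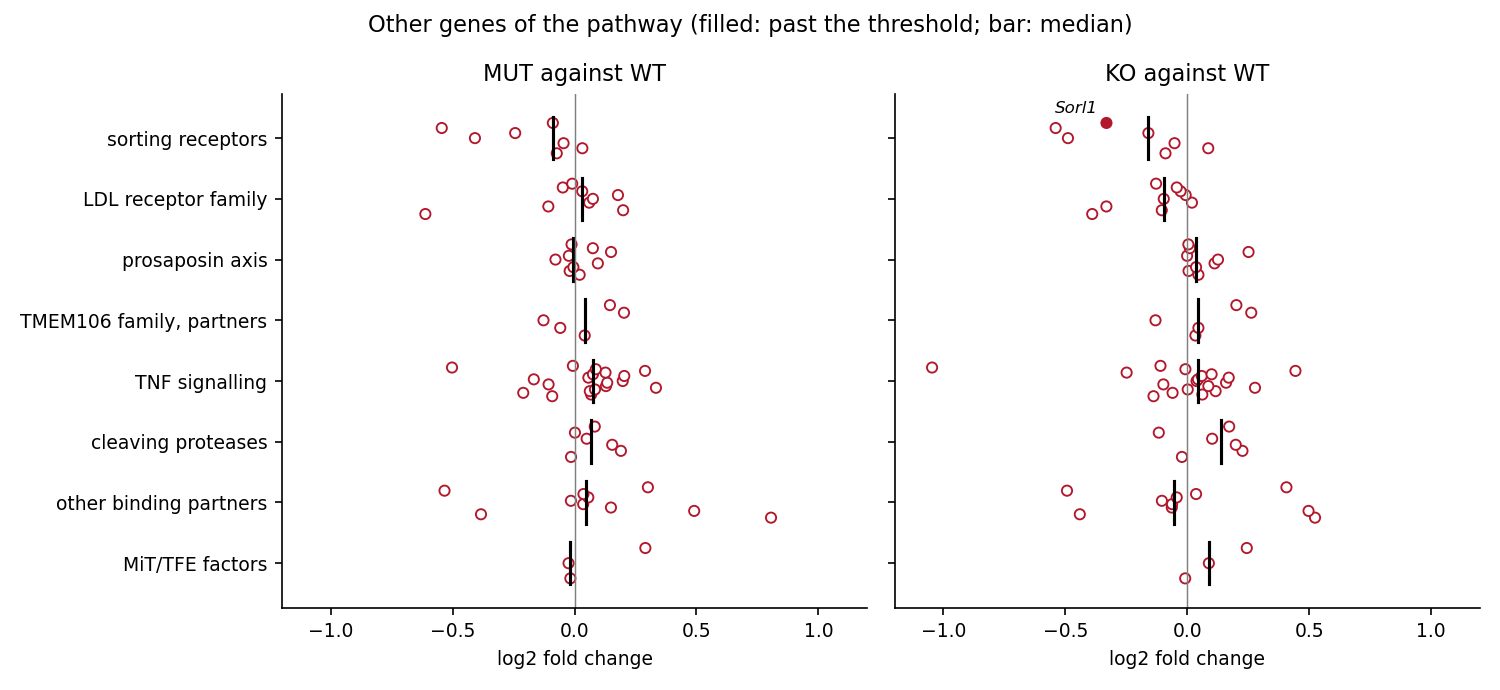
Log2 fold change (x axis) of the 68 tested pathway genes that are not among the 7, by list, for MUT against WT on the left and KO against WT on the right. Open points did not pass the threshold, the filled point is Sorl1 in KO at -0.33, and the bars are list medians, which lie between -0.09 and 0.08 in MUT and between -0.16 and 0.14 in KO.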

How the data were processed

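The authors deposited raw read counts per gene for 12 mouse cortex libraries, with exon coordinates and the summed exon length in bases listed beside them, per the file headers. RNA was made into directional libraries, per the labels' protocols. The submitters' processing notes name mm10, R 4.1.2 and DESeq2 1.34.0. Which aligner and counter were run, and with which strand setting, is not given in the sources used here. No other gene in the table shares exon bases with any of the 7 genes.

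Columns were matched to samples by name. The filter filterByExpr (minimum count 10, total 15) kept 15298 of 27179 genes. After TMM scaling, edgeR 4.0.16 under R 4.3.3 fitted a mean for each group plus a term for the labelled sex to all 12 libraries, with robust quasi-likelihood dispersions (8 residual degrees of freedom, common biological coefficient of variation 0.101). F tests were adjusted by Benjamini-Hochberg over all tested genes. Age was left out because 3 of 4 WT animals and no others were 375 days old. RPKM divides CPM by exon length. No 2 libraries agreed within sampling noise. The procedure was tested on simulated counts.

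The 7 genes and the lists were chosen with earlier results of these data known. Named genes are the 7, list genes past the threshold, the 3 most abundant tested genes of each list, and the 3 genes most correlated with each member. Sorcs1, Sorcs2, Sorcs3, Ctsl, Trem2, Gpnmb and Tmem106c were named besides, after seeing the data. Alternatives were other scalings, filters, DESeq2 1.42.0, limma-voom 3.58.1, other terms and subsets, and each library left out. Leaving out the 3 libraries high in choroid plexus markers, and the fit without the robust option, were chosen after seeing the data.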

Additional observations from a re-analysis of the deposited data

Results flagged for a closer look

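Samples far from the rest of their group were sought in each gene and group, a rule by which chance alone would mark about 1 in 20 groups. Of 21 combinations, 3 were marked. Tnfrsf1a measured 10.9 CPM in MUT replicate 1, above the other MUT libraries, and 7.18 CPM in WT replicate 2, below the other WT libraries. Lrp1 measured 669 CPM in WT replicate 4, below the other WT libraries. MUT replicate 1 and WT replicate 4 are both high in choroid plexus markers, whose part in these values was not tested.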

How the results depend on the processing

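Grn passed the threshold in MUT against WT and in KO against WT in each of 29 alternative fits, with log2 fold changes of -2.30 to -2.03 in MUT and -2.33 to -2.06 in KO. Of 690 alternative values for the other 6 genes, 0 passed and 55 took the other sign, as did some for Grn in MUT against KO; the cause was not tested. For MUT against WT, Psap was at 0.0044 with library size alone as the scale, 0.064 with sex and age as terms, 0.037 with the striatal marker level as a term, 0.094 with the libraries labelled female and 0.084 with animals under 310 days. For MUT against WT, Tmem106b was at 0.11 with sex and age as terms, 0.053 with the striatal marker level as a term, 0.060 with the libraries labelled female, 0.068 with animals under 310 days and 0.015 with the 3 libraries high in choroid plexus markers left out. For KO against WT, Tnfrsf1b was at -0.00030 with DESeq2, -0.014 with limma-voom, -0.061 with a fit without the sex term, -0.0069 with the replicate number as a block, -0.028 with the microglial marker level as a term and -0.018 with only the 2 groups compared. For KO against WT, Psap was at -0.0031 with a fit without the sex term, -0.023 with the microglial marker level as a term and -0.0029 with the 3 libraries high in choroid plexus markers left out. For the mean of both null groups against WT, Psap was at 0.018 with library size alone as the scale, 0.086 with sex and age as terms, 0.051 with the striatal marker level as a term, 0.10 with the libraries labelled female and 0.10 with animals under 310 days. For the mean of both null groups against WT, Tnfrsf1b was at -0.021 with a fit without the sex term. For the mean of both null groups against WT, Tmem106b was at 0.053 with sex and age as terms, 0.0090 with the libraries labelled female and 0.0054 with animals under 310 days. For MUT against KO, Lrp1 was at 0.0044 with a fit without the sex term. For MUT against KO, Tnfrsf1a was at 0.022 with a fit without the sex term. For MUT against KO, Grn was at -0.021 with the libraries labelled female. For MUT against KO, Sort1 was at -0.0053 with the libraries labelled female. For MUT against KO, Tnfrsf1b was at -0.028 with the libraries labelled female. Leaving out 1 library at a time gave, as lowest and highest values, -0.048 and 0.024 for Psap in KO against WT, -0.076 and 0.12 for Tnfrsf1b in KO against WT, -0.091 and 0.0082 for Tmem106b in MUT against WT, -5.5e-05 and 0.12 for Tnfrsf1a in MUT against WT and -0.089 and 0.028 for Psap in MUT against WT. It gave -0.12 and 0.085 for Tnfrsf1a in MUT against KO, -0.044 and 0.012 for Psap in MUT against KO, -0.032 and 0.027 for Lrp1 in MUT against KO, -0.00019 and 0.13 for Grn in MUT against KO and -0.069 and 0.022 for Psap in the mean of both null groups against WT. Same-numbered libraries of different groups had deviations that correlated at -0.38 to 0.29, beside -0.27 to 0.53 for libraries with other numbers. These ranges showed no pairing by number, but a pairing hidden by the uneven tissue makeup was not tested. With the replicate number as a block, Grn was at -2.15 in MUT and -2.21 in KO, both passing, and the Sorl1 call in KO was lost (-0.34, edgeR adjusted p = 0.0998). Over the alternatives the number of all genes called ran between 2 and 1030 in MUT against WT and between 1 and 1620 in KO against WT. It ran between 2 and 1686 for the mean of both and between 1 and 39 in MUT against KO. Calls among the other pathway genes reached 4 in MUT and 6 in KO. Counts were lowest for Tnfrsf1b, followed by Tnfrsf1a. Being 375 days old and rich in striatal markers coincided with WT in 3 of its 4 libraries, and these cannot be told apart there. Among libraries labelled female, and among animals under 310 days, WT replicate 1 was the lone WT library.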
